A study of Mus musculus with 10 samples.

Results

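The Fc receptor genes Fcgr1, Fcgr2b, Fcgr3, Fcgr4, Fcer1g and Fcgrt were examined in macrophages of the gut wall after experimental stroke. The 6 genes were taken by symbol from a table of 17279 genes, and all 6 were among the 16949 genes that passed the filter on low counts and were tested. The libraries came from lamina propria macrophages of the small intestine of C57BL6/J mice, collected by fluorescence-activated sorting 24 h after either sham surgery or permanent middle cerebral artery occlusion (pMCAO), a stroke model without reperfusion. There were 5 sham and 5 pMCAO libraries. The series' design text describes the sorted cells as CX3CR1-GFP+, a reporter that both groups then share, although the genotype label gives the strain alone. Age and sex were not given in the labels, and the library names of replicate 1 in both groups hold the word pool.

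Fc receptors connect antibodies to the cells that bind them. The activating receptors for IgG, Fcgr1 (CD64, of high affinity), Fcgr3 (CD16) and Fcgr4, need the common gamma chain Fcer1g, which carries the tyrosine motif that signals through the kinase Syk and leads to phagocytosis and an oxidative burst. Fcgr2b (CD32B) binds the same complexes but carries an inhibitory motif, which recruits the phosphatase SHIP-1 (Inpp5d) and restrains the response. Fcgrt is the heavy chain of the neonatal Fc receptor, which pairs with beta-2-microglobulin (B2m) and returns IgG and albumin from endosomes to the cell surface. In the intestinal lamina propria most plasma cells make IgA, for which none of the 6 genes encodes a classical receptor.

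Total counts were between 18894151 and 60665972 in the sham libraries and between 6430643 and 28672285 in the pMCAO libraries. The lowest count of any of the 6 genes in any library was 196 (Fcgrt). Macrophage identity was checked with 18 marker genes, all of which were listed, and their summed level was between 9478 and 22114 CPM (counts per 1000000, scaled between libraries by TMM, as are all gene levels below). Sham replicate 5 stood apart. It had the lowest summed macrophage level (9478 CPM), and pMCAO replicate 5 was next lowest (10915 CPM). Sham replicate 5 also had the highest summed levels of mast cell (20220 CPM), natural killer cell (519 CPM) and T cell markers (515 CPM). Its sum of dendritic cell markers was also the highest (457 CPM), but Itgae alone held 297 CPM of it. By the mean log2 level of the dendritic cell markers, pMCAO replicate 5 was higher (5.05 against 4.96). Sham replicate 5 and pMCAO replicate 4 also held Xist, at 2237 and 4686 CPM of all counts without TMM, against 1.27 to 4.88 in the other 8 libraries. The fold changes are given below with and without these libraries.

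Of the 6 genes, 4 lie near each other on chromosome 1 in GRCm38: Fcgr2b at chr1:170958617-170976547 on the minus strand, Fcgr4 at chr1:171018920-171029761 on the plus strand, Fcgr3 at chr1:171051174-171064935 on the minus strand and Fcer1g at chr1:171229572-171234365 on the minus strand. Fcgr1 is at chr3:96282909-96293969 and Fcgrt at chr7:45092990-45103851, both on the minus strand. Fcgr2b and Fcgr3 share sequence that bears on how their counts can be read. Their longest identical stretch, 129 bases of coding sequence in exons 3 and 4 that encode part of the extracellular region, is shown because the 100-base reads of this study fit inside it. Bases from exon 4 are in capitals:
Fcgr2b and Fcgr3: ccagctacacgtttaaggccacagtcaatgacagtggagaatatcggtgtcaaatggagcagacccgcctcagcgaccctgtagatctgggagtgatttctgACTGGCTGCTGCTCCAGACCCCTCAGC
In Fcgr2b it lies at chr1:170967980-170968081 and chr1:170966674-170966700, and in Fcgr3 at chr1:171057691-171057792 and chr1:171054167-171054193. Compared without gaps, 4 consecutive blocks of 100 bases over this part were 93% to 99% identical between the 2 transcripts, while the 6 last blocks were 20% to 31% identical. Of all 100-base windows, 3.53% of the Fcgr3 transcript and 1.28% of the Fcgr2b transcript occurred unchanged in the other. Counting repeats in its transcript, 6.79% of the Fcgr2b windows occurred in some other gene. No window of Fcgr1, Fcgr4, Fcer1g or Fcgrt did. An antisense gene, Gm38204, shares 155 exon bases with Fcgr2b. Whether counting used the strand is not stated, so small parts of the Fcgr2b and Fcgr3 counts cannot be assigned with certainty. The windows took each read alone. Reads were sequenced in pairs, and the position of the other read was not considered.

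The start regions of the activating receptors Fcgr1, Fcgr3 and Fcgr4 are shown from RefSeq (GRCm38.p6) as those in which a searched motif was found, each from 120 bases before to 20 bases after the annotated start. The core GAGGAA bound by PU.1 (Spi1), the main myeloid transcription factor, was searched for on both strands, as was TTCNNNGAA, the site type of STAT factors. Matches are in capitals, and GAGGAA appears on the reverse strand as its complement:
Fcgr1, chr3:96293950-96294089, minus strand: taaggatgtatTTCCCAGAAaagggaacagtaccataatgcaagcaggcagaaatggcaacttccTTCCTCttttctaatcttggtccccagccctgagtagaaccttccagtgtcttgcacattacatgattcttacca
Fcgr3, chr1:171059384-171059523, minus strand: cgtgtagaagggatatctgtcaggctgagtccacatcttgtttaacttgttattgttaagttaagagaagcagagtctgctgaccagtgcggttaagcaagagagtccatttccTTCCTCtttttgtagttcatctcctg
Fcgr4, chr1:171018806-171018945, plus strand: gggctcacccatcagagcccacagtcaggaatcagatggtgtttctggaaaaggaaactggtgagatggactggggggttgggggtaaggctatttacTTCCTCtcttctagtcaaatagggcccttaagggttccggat
The core began 55 bases before the start in Fcgr1, 6 bases before it in Fcgr3 and 22 bases before it in Fcgr4. For another annotated start of Fcgr3, not shown, the core began 15 bases before. Over the full 300-base windows it was in 3 of the 6 genes and not in Fcgr2b, Fcer1g or Fcgrt. It was in 28.3% of 32851 mouse promoters of that length. The longer motif was in Fcgr1 alone among the 6 genes, 109 bases before the start, and in 8.30% of all promoters. A match of letters describes the sequence and does not show binding. Its part in the levels of these genes was not tested.

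None of the 6 Fc receptor genes differed between pMCAO and sham beyond the spread between libraries. Among the activating receptors, Fcgr1 was at 158, 125, 171, 125 and 65.6 CPM in sham replicates 1 to 5 and at 131, 126, 110, 120 and 77.2 CPM in pMCAO replicates 1 to 5. Replicate 5 was the lowest library of each group, and the pMCAO values lay inside the range of the sham values. The mean was 129 ± 40.7 CPM (SD, n = 5) in sham and 113 ± 21.3 CPM (SD, n = 5) in pMCAO, a log2 fold change of -0.20 (SE 0.24, edgeR adjusted p = 0.945).

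Fcgr3 was at 538, 407, 545, 463 and 214 CPM in the sham libraries and at 347, 413, 496, 534 and 256 CPM in the pMCAO libraries. The groups overlapped nearly completely, and again both replicates 5 were lowest. The log2 fold change was -0.083 (SE 0.27, edgeR adjusted p = 0.978), and its sign turned when sham replicate 1, sham replicate 3 or pMCAO replicate 5 was left out.

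Fcgr4, which binds the IgG2 subclasses, had the largest fold change of the 6 genes in size. It was at 278, 221, 336, 351 and 92.4 CPM in sham and at 283, 191, 232, 174 and 112 CPM in pMCAO. In 4 of 5 pMCAO libraries it was below the sham mean of 256 ± 105 CPM (SD, n = 5), but sham replicate 5 was below every pMCAO library. This gave a log2 fold change of -0.36 (SE 0.33, edgeR adjusted p = 0.925). Without sham replicate 5 it was -0.58, with an unadjusted edgeR p of 0.0404 and an adjusted p of 0.921, the lowest unadjusted p of the 6 genes under any alternative. Without pMCAO replicate 5, the lowest library of its group, it was -0.22. Fcgr4 is also expressed by neutrophils and monocytes. Of 8 neutrophil markers 3 were listed, with a summed level of 56.9 to 114 CPM in sham and 62.7 to 153 CPM in pMCAO. Nearly all of that sum was Csf3r (52.3 to 152 CPM over all libraries), while Retnlg was at 0 to 12.2 CPM. The 7 monocyte markers summed to 752 to 2404 CPM in sham and 783 to 1715 CPM in pMCAO. Of those 7, 3 had positive and 4 negative log2 fold changes (median -0.13), with Plac8 (-1.08, edgeR unadjusted p = 0.0227) and Vcan (-1.47, edgeR unadjusted p = 0.045) under an unadjusted p of 0.05. Their part in the Fcgr4 values was not tested.

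The inhibitory receptor Fcgr2b was at 485, 566, 650, 635 and 262 CPM in the sham libraries and at 456, 455, 526, 565 and 355 CPM in the pMCAO libraries. All 5 pMCAO values lay within the sham range, whose lowest value was again that of replicate 5. Its log2 fold change was -0.14 (SE 0.24, edgeR adjusted p = 0.955), the smallest standard error among the 6 genes.

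The common gamma chain Fcer1g was at 1054, 561, 761, 1402 and 475 CPM in sham and at 840, 527, 1358, 540 and 457 CPM in pMCAO. The highest libraries were sham replicate 4 and pMCAO replicate 3, and Fcer1g had the largest coefficient of variation of the 6 genes (45.1% over 10 libraries). Its log2 fold change was -0.19 (SE 0.36, edgeR adjusted p = 0.962).

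Fcgrt alone had a higher mean in pMCAO, at 42.0 ± 15.5 CPM (SD, n = 5) against 36.3 ± 16.5 CPM (SD, n = 5). Its values were 49.2, 21.9, 37.6, 55.3 and 17.5 CPM in sham and 28.7, 36.6, 60.1, 56.8 and 27.6 CPM in pMCAO, so that 2 pMCAO libraries were below the sham mean. The log2 fold change was 0.21 (SE 0.34, edgeR adjusted p = 0.954). Its partner B2m was at 4669 ± 1057 CPM (SD, n = 5) in sham and 4685 ± 937 CPM (SD, n = 5) in pMCAO.

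**Figure D1:**
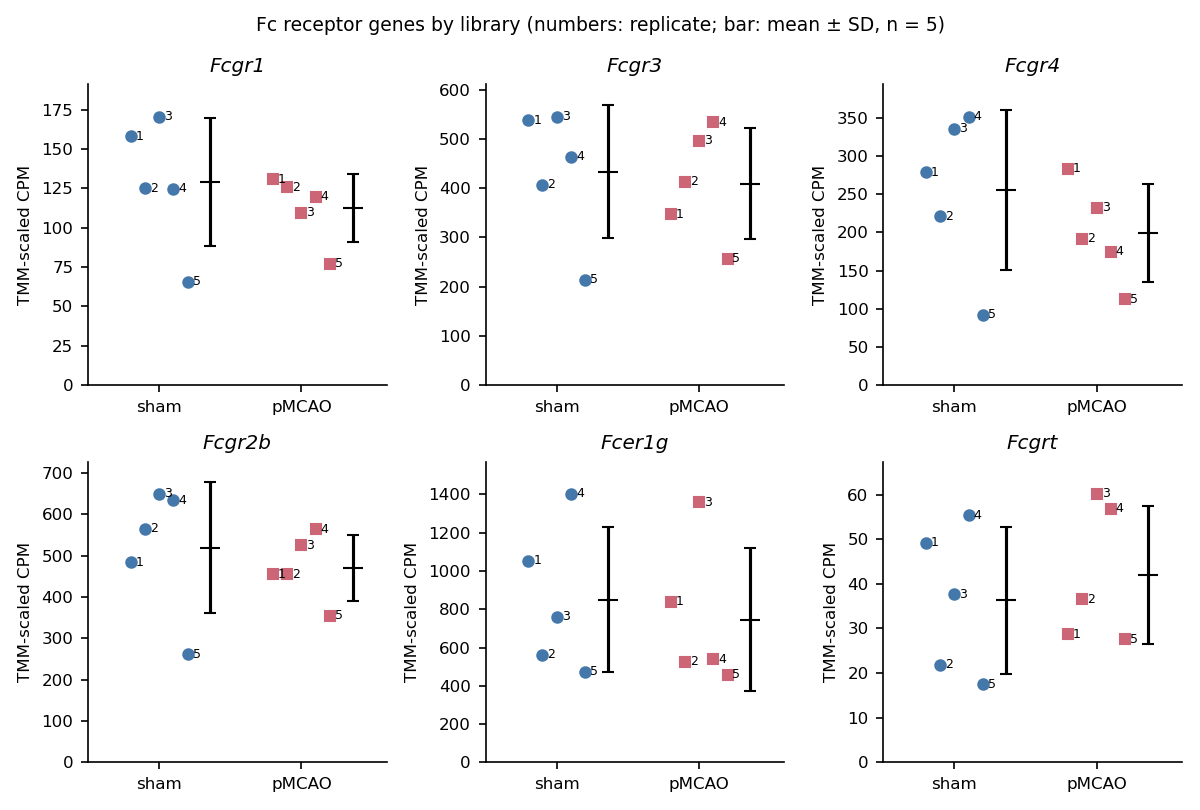
TMM-scaled CPM (vertical axes, from 0) of the 6 Fc receptor genes in the 5 sham (blue circles) and 5 pMCAO libraries (red squares), numbered by replicate, with the mean and SD of each group in black. The groups overlap for all 6 genes, and sham replicate 5 is the lowest of the 10 libraries for 5 of them, with Fcer1g the exception.

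At an adjusted p of at most 0.05, 0 of the 6 genes were called by edgeR, against 0% of all tested genes, and DESeq2 and limma-voom also called 0 of the 6. At an unadjusted p under 0.05, 0 of 6 were called, against 4.71% of all genes (799 of 16949). The smallest p among the 6 was 0.295, for Fcgr4. For 0 of the 6 genes did the values of the groups not overlap, against 0.985% of all genes. The counts of calls thus do not set the 6 genes apart. Without sham replicate 5 the log2 fold change was -0.37 for Fcgr1, -0.26 for Fcgr3, -0.31 for Fcgr2b, -0.35 for Fcer1g and 0.030 for Fcgrt. Without both libraries that held Xist it was -0.39 for Fcgr1, -0.37 for Fcgr3, -0.54 for Fcgr4, -0.39 for Fcgr2b, -0.25 for Fcer1g and -0.10 for Fcgrt, with unadjusted edgeR p-values from 0.0588 for Fcgr2b to 0.769 for Fcgrt. The 4 IgG receptor genes were thus lower in pMCAO by more when these libraries were left out, and 0 of 6 passed the adjusted threshold. Leaving out pMCAO replicate 5, the lowest pMCAO library for these 4 genes, moved them the other way. The log2 fold change was then -0.087 for Fcgr1, 0.046 for Fcgr3, -0.22 for Fcgr4 and -0.055 for Fcgr2b. Leaving out replicate 5 of both groups together was not tested. With all 10 libraries, fold changes were below 0 for 5 genes and above 0 for 1, with a median log2 fold change of -0.17, beside -0.0059 over all genes, of which 49.4% were above 0. Because the libraries are bulk samples, a lower level cannot be told apart from fewer of the cells that express the gene.

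The plot of fold changes with their intervals shows how large a difference these libraries could hold unseen. The 95% interval of the log2 fold change ran from -0.72 to 0.33 for Fcgr1, from -0.67 to 0.50 for Fcgr3 and from -1.09 to 0.36 for Fcgr4. It ran from -0.66 to 0.38 for Fcgr2b, from -0.97 to 0.59 for Fcer1g and from -0.54 to 0.96 for Fcgrt. A rise of 1 or more on the log2 scale lay outside the intervals of all 6 genes, while a fall of that size lay inside the interval of Fcgr4.

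**Figure D2:**
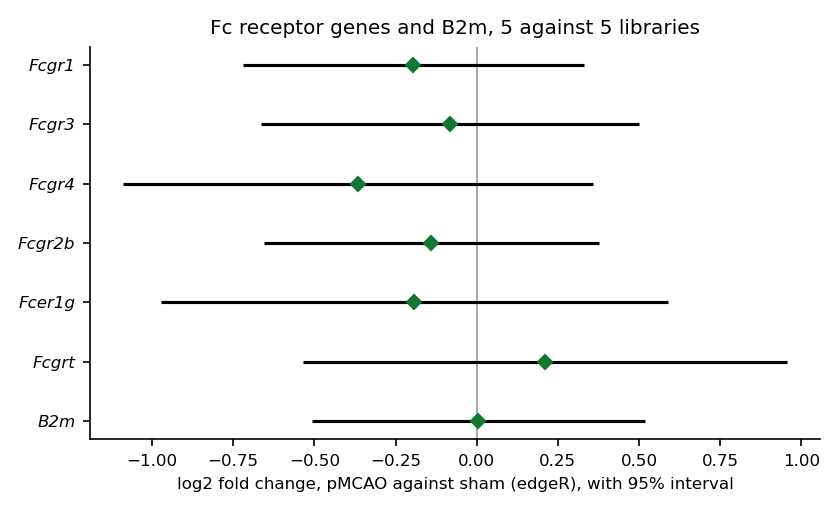
Log2 fold change of pMCAO against sham (diamonds, edgeR) with its 95% interval (lines) for the 6 Fc receptor genes and B2m, from 5 against 5 libraries. Every interval includes 0, and B2m lies at 0.0048.

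Per length of the gene, the gamma chain was the most abundant member and Fcgrt the least. With the union of a gene's exons as its length, the mean level over the 10 libraries was 912 ± 412 CPM per kb for Fcer1g, 243 ± 67.9 for Fcgr3, 181 ± 69.4 for Fcgr4, 85.5 ± 20.9 for Fcgr2b, 46.6 ± 12.3 for Fcgr1 and 18.6 ± 7.32 for Fcgrt (SD, n = 10). Fcer1g was above Fcgr3 in 10 of 10 libraries, by 1.85 ± 0.52 on the log2 scale. Fcgr3 was above Fcgr4 in 8 of 10, by 0.48 ± 0.40.

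The middle of this order depended on the length taken for the genes. With the longest or the median protein-coding transcript Fcgr3 was above Fcgr4 in 10 of 10 libraries. The exon union of Fcgr2b, 5790 bases, is much longer than most of its transcripts. With the median length of its protein-coding transcripts (1520 bases) its level was 326 ± 79.5 CPM per kb and it stood beside Fcgr3 (318 ± 89.1), above it in 6 of 10 libraries. With the longest protein-coding transcript it was at 140 CPM per kb and below Fcgr4 in 7 of 10 libraries. Fcer1g as the highest and Fcgrt as the lowest gene kept their places under all 3 lengths.

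The balance between inhibition and activation was compared within each library, where scaling has no part. The counts of Fcgr2b divided by the summed counts of Fcgr1, Fcgr3 and Fcgr4 gave 0.497, 0.751, 0.618, 0.676 and 0.704 in sham and 0.599, 0.623, 0.627, 0.682 and 0.797 in pMCAO. All but 1 of the pMCAO values lay within the sham range. The mean log2 ratio was -0.64 ± 0.23 (SD, n = 5) in sham and -0.59 ± 0.16 (SD, n = 5) in pMCAO, a difference of 0.042 (exact permutation test, two-sided, p = 0.754, adjusted p = 0.794 over 3 ratios).

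The gamma chain was likewise set against the ligand-binding chains it serves. The ratio of Fcer1g to the summed activating receptors was 1.08, 0.745, 0.724, 1.49 and 1.28 in sham and 1.10, 0.722, 1.62, 0.652 and 1.02 in pMCAO. It thus varied more among libraries of a group than between the groups, with a difference of -0.073 in mean log2 ratio (exact permutation p = 0.794, adjusted p = 0.794). The log2 ratio of Fcgrt to B2m was -7.11 ± 0.49 (SD, n = 5) in sham and -6.86 ± 0.58 (SD, n = 5) in pMCAO, and 4 of 5 pMCAO libraries were above the sham mean (difference 0.25, exact permutation p = 0.460, adjusted p = 0.794). The smallest p that 5 against 5 libraries allow in this test is 0.0079.

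The proteins that signal below the receptors were examined as lists, in which 0 genes passed an adjusted p of 0.05 in edgeR. Of 34 tested genes of activating signalling, 20 had a positive and 14 a negative log2 fold change (median 0.033, beside -0.0059 over all genes), and 1 had an unadjusted p under 0.05. Syk, the kinase that binds the phosphorylated gamma chain, was the 1 gene of the list whose groups did not overlap, and it is named after its values were seen. It was at 224, 245, 242, 247 and 214 CPM in sham and at 260, 257, 261, 268 and 250 CPM in pMCAO. The gap between the groups was small beside their range, and the log2 fold change was 0.15 (SE 0.12, edgeR adjusted p = 0.922). For 1 of 34 genes in the list the groups did not overlap, against 0.985% of all genes.

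Gab2, an adaptor that brings in phosphoinositide 3-kinase, had the smallest p of this list. It was at 79.3, 82.9, 76.6, 99.3 and 64.0 CPM in sham and at 105, 100, 141, 136 and 94.7 CPM in pMCAO, so that sham replicate 4 lay above pMCAO replicate 5 only. The log2 fold change was 0.52 (SE 0.17, edgeR unadjusted p = 0.00965, adjusted p = 0.922). Pik3cb, a catalytic subunit of that kinase, had a log2 fold change of 0.41 (SE 0.19). For the phagocyte oxidase, which the receptors can trigger, 1 of 5 genes was positive and 4 were negative, with 1 at an unadjusted p under 0.05. Cybb, its membrane subunit, had a log2 fold change of 0.38 (SE 0.19), and the regulatory subunit Ncf4 one of -0.49 (SE 0.21, edgeR unadjusted p = 0.0396).

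On the inhibitory side, 4 of 10 genes of signalling below Fcgr2b were positive and 6 negative (median log2 fold change -0.072), with 0 at an unadjusted p under 0.05. The phosphatase Inpp5d, through which Fcgr2b acts, was at 183 ± 20.2 CPM in sham and 206 ± 29.3 CPM in pMCAO (SD, n = 5). The related phosphatase Ptpn6 (SHP-1) had a log2 fold change of -0.28 (SE 0.14). Other receptors with inhibitory tyrosine motifs were positive in 7 of 9 cases (median log2 fold change 0.14), with 1 at an unadjusted p under 0.05, and were led by Cd300a at a mean of 152 CPM in sham and 193 CPM in pMCAO (log2 fold change 0.34, SE 0.15, edgeR unadjusted p = 0.0387, adjusted p = 0.922), with Clec12a next (log2 fold change 0.30, SE 0.25). Neither side of the pathway thus showed a gene past the threshold.

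Other receptors that use the gamma chain, or a related adaptor, gave 5 positive and 5 negative log2 fold changes among 10 tested genes (median 0.044), with 1 at an unadjusted p under 0.05. Clec4e (Mincle), a lectin receptor that signals through Fcer1g, was at 6.15, 23.7, 17.1, 39.4 and 6.97 CPM in sham and at 3.08, 12.6, 5.86, 2.22 and 4.38 CPM in pMCAO. The groups overlapped, and sham replicate 4, which also had the highest Fcer1g, was the highest library. The log2 fold change of Clec4e was -1.71 (SE 0.58, edgeR unadjusted p = 0.0124, adjusted p = 0.922), and that of the lipid receptor Trem2 was 0.72 (SE 0.41).

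Among 12 tested genes of other immunoglobulin-binding receptors, 4 were positive and 8 negative (median log2 fold change -0.24), with 0 at an unadjusted p under 0.05. Pigr, which carries IgA across epithelial cells and is not a macrophage gene, had the smallest p, at 176 ± 35.1 CPM in sham and 83.2 ± 61.5 CPM in pMCAO (SD, n = 5, edgeR unadjusted p = 0.0572), while the summed level of epithelial markers was between 479 and 1034 CPM in sham and between 126 and 1225 CPM in pMCAO. Fcer1a, the IgE-binding chain of the mast cell receptor that also needs Fcer1g, was at 111, 78.7, 55.9, 11.3 and 273 CPM in sham and at 37.5, 21.1, 3.64, 11.8 and 95.8 CPM in pMCAO. It was highest in sham replicate 5 and next highest in sham replicate 1, and its log2 fold change was -1.64 (SE 0.83, edgeR unadjusted p = 0.0722).

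Beside these values stood signs of mast cells. All 6 tested mast cell markers had negative log2 fold changes (median -1.23), while 49.4% of all tested genes were above 0. Of the 6, 2 had an unadjusted p under 0.05, beside 4.71% of all genes. These were the mucosal proteases Mcpt1 (-1.86, edgeR unadjusted p = 0.018) and Mcpt2 (-1.82, edgeR unadjusted p = 0.0228). The summed level of the mast cell markers was 8430, 7541, 7361, 2150 and 20220 CPM in sham and 3193, 1771, 454, 1222 and 6640 CPM in pMCAO. Markers of natural killer cells and T cells were also negative in 6 of 6 and 9 of 9 genes (median log2 fold change -0.45 and -0.85), with 0 at an unadjusted p under 0.05. Sham replicate 5 had the highest sum for each of these cell types. The part that mast cells had in the Fcer1g values was not tested.

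**Figure D3:**
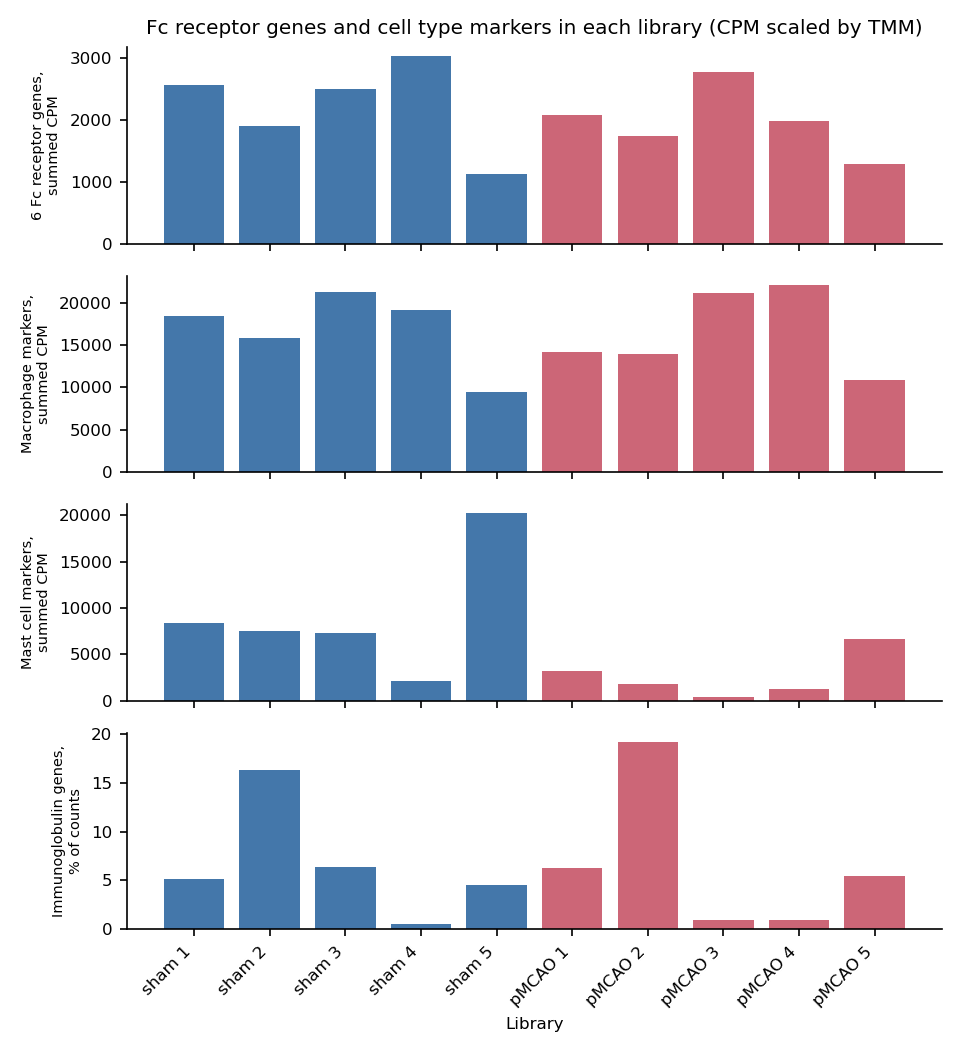
Summed TMM-scaled CPM of the 6 Fc receptor genes, of macrophage markers and of mast cell markers, and the percentage of counts in immunoglobulin genes (vertical axes, from 0), in each of the 5 sham (blue) and 5 pMCAO libraries (red). The sum of the Fc receptor genes is lowest in sham replicate 5 (1125 CPM), where macrophage markers are also lowest and mast cell markers highest, while immunoglobulin is highest in replicate 2 of both groups.

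Immunoglobulin transcripts, which macrophages do not make, took up a large and uneven share of the libraries. The 180 listed immunoglobulin genes held 5.15%, 16.3%, 6.36%, 0.586% and 4.56% of all counts in sham and 6.26%, 19.2%, 0.938%, 0.914% and 5.44% in pMCAO. The groups overlapped over nearly the whole range, with 1 sham and 2 pMCAO libraries under 1% and 1 library of each group above 16%. Most of it was IgA. Igha, the IgA heavy chain gene, made up 80.3% to 96.5% of the heavy chain constant counts, and the 4 IgG genes together 0.890% to 4.69%. After Igha, the constant genes with the highest mean were the kappa light chain Igkc (18570 CPM) and the joining chain Jchain (8532 CPM). The ligand of the Fcgr receptors, IgG, was thus a minor part of the immunoglobulin RNA. Within it Ighg2b was the highest, at a mean of 378 CPM.

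The level of each Fc receptor gene was related to the log2 immunoglobulin share over the 10 libraries, within a family of 33 relations for which p-values were adjusted together. For 0 of the 6 genes did this relation pass an adjusted p of 0.05. Pearson's r was 0.076 for Fcgr1 (Spearman's rho 0.49), -0.29 for Fcgr3 (rho -0.14), -0.17 for Fcgr4 (rho -0.055) and -0.27 for Fcgr2b (rho -0.13), with permutation p-values from 0.428 for Fcgr3 to 0.847 for Fcgr1 and permutation p-values for rho from 0.154 for Fcgr1 to 0.893 for Fcgr4. The ligand-binding receptors therefore showed no relation to the immunoglobulin share that these libraries could resolve. For comparison, the median r over all tested genes was 0.070.

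Fcer1g and Fcgrt had the most negative relations. For Fcer1g, r was -0.57 (permutation p = 0.0918, adjusted p = 0.138) and rho -0.38 (permutation p = 0.279, adjusted p = 0.354). For Fcgrt, r was -0.67 (permutation p = 0.0388, adjusted p = 0.0712) and rho -0.55 (permutation p = 0.107, adjusted p = 0.208), and 7.64% of all tested genes had an r at or below that of Fcgrt. Both genes passed the adjusted threshold when the share of IgG genes alone was used, with r = -0.70 for Fcer1g (permutation p = 0.0193, adjusted p = 0.0393) and r = -0.79 for Fcgrt (permutation p = 0.00614, adjusted p = 0.0219). The groups were too small for a relation within each of them, but with both variables centred on their group means r was -0.59 for Fcer1g and -0.67 for Fcgrt.

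For the share of all immunoglobulin genes, the relation of Fcgrt rested on the difference between 2 sets of libraries. That of Fcer1g was weaker within the larger set. The relations to the share of IgG genes alone were not examined within these sets. Sham replicate 4 and pMCAO replicates 3 and 4 had immunoglobulin shares under 1%, and the other 7 libraries had between 4.56% and 19.2%. Within those 7, a division chosen after the shares were seen, r was -0.26 for Fcer1g and 0.019 for Fcgrt (permutation p = 0.544 and 0.967). It was 0.28 for Fcgr1, 0.31 for Fcgr3, 0.20 for Fcgr4 and 0.42 for Fcgr2b. Without the 2 libraries farthest from the median share, sham replicate 4 and pMCAO replicate 4, r was -0.66 for Fcer1g and -0.49 for Fcgrt, and for the 4 other genes it lay between -0.075 for Fcgr3 and 0.21 for Fcgr1. In the plot against the immunoglobulin share, pMCAO replicate 4 is low for Fcer1g despite its small share. The 3 libraries under 1% also had the highest mean log2 levels of macrophage markers. These were 9.20 in sham replicate 4, 9.14 in pMCAO replicate 3 and 9.20 in pMCAO replicate 4, beside 7.60 to 8.89 in the other 7. A relation to the immunoglobulin share thus cannot be told apart here from one to the macrophage markers.

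**Figure D4:**
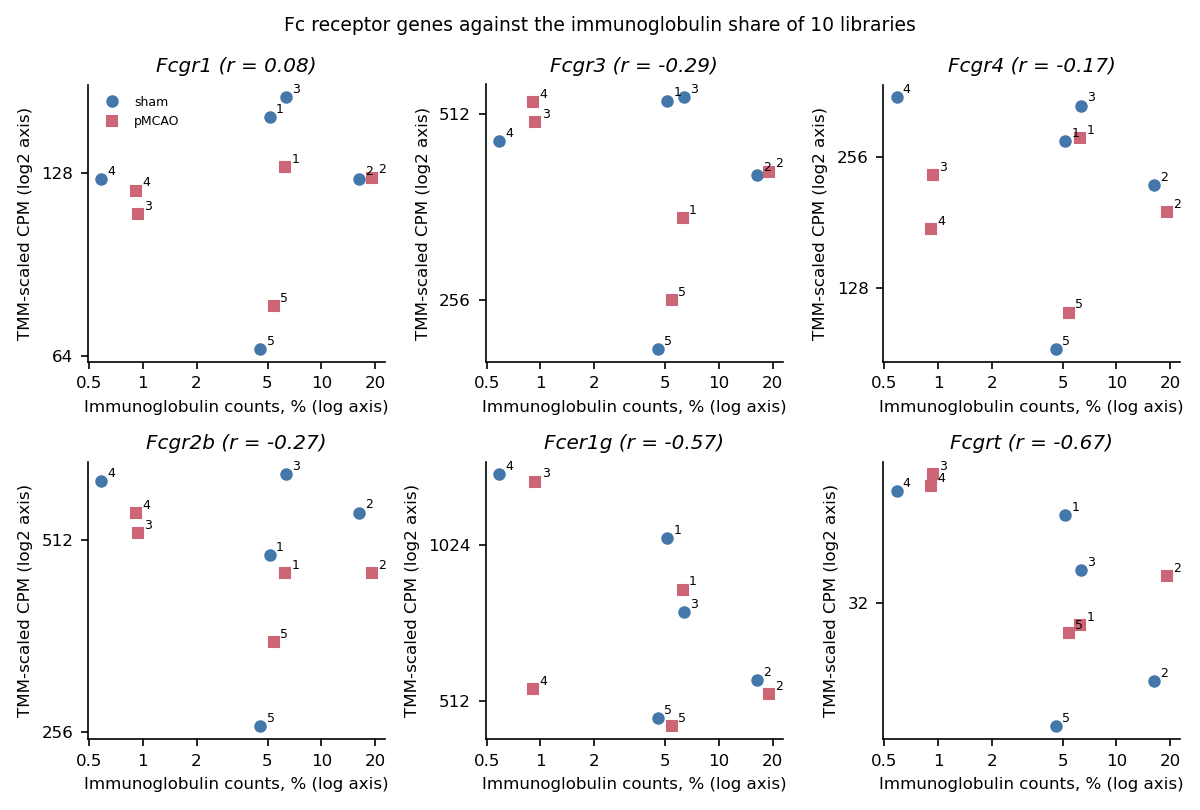
TMM-scaled CPM of the 6 Fc receptor genes (vertical axes, log2) against the percentage of counts in immunoglobulin genes (horizontal axes, log) in 5 sham (blue circles) and 5 pMCAO libraries (red squares), numbered by replicate. The 3 libraries under 1% stand apart from the other 7, and Pearson's r over the 10 libraries runs from -0.67 for Fcgrt to 0.08 for Fcgr1.

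With the level of B cell and plasma cell markers in place of the immunoglobulin share, Fcer1g and Fcgrt passed the adjusted threshold by Pearson's r. It was -0.76 for Fcer1g and -0.75 for Fcgrt (permutation p = 0.0111 and 0.0119, adjusted p = 0.0317 for both). Spearman's rho was -0.71 and -0.81 and did not pass (permutation p = 0.0265 and 0.00752, adjusted p = 0.0997 and 0.0827). Without sham replicate 4 and pMCAO replicate 3, r fell in size to -0.27 for Fcer1g and -0.63 for Fcgrt, so that the relation of Fcer1g rested on those libraries. For the other 4 genes r was between -0.42 for Fcgr3 and -0.079 for Fcgr1.

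The 6 genes were then related to the mean log2 level of the 18 macrophage markers, none of which is an Fc receptor. All 6 relations were positive, and 5 passed the adjusted threshold. Fcgrt followed the markers most closely, with r = 0.95 (permutation p = 7e-05, adjusted p = 0.00231) and rho = 0.93 (permutation p = 0.00035, adjusted p = 0.0115). It remained at r = 0.94 without sham replicate 5 and pMCAO replicate 5, the libraries farthest from the median, and 0.118% of all tested genes had an r at or above that of Fcgrt.

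Fcgr1, Fcgr2b and Fcgr4 followed the macrophage markers mainly through replicate 5 of both groups, while Fcgr3 and Fcer1g did so in part. Over the 10 libraries r was 0.86 for Fcgr3, 0.79 for Fcgr2b, 0.72 for Fcgr4 and 0.72 for Fcer1g (permutation p = 0.00186, 0.00664, 0.0195 and 0.0203, adjusted p from 0.0127 to 0.0446), and 0.65 for Fcgr1 (permutation p = 0.0434, adjusted p = 0.0753). Spearman's rho was 0.73 for Fcgr3, 0.66 for Fcgr2b, 0.62 for Fcgr4, 0.77 for Fcer1g and 0.26 for Fcgr1 (permutation p = 0.0209, 0.0457, 0.0610, 0.0128 and 0.472), and none of these passed the adjustment. Without sham replicate 5 and pMCAO replicate 5, r was 0.58 for Fcgr3, 0.28 for Fcgr2b, 0.16 for Fcgr4, 0.60 for Fcer1g and -0.18 for Fcgr1. The relations of Fcgr1, Fcgr2b and Fcgr4 thus rested on those libraries, as the plot against macrophage markers shows.

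**Figure D5:**
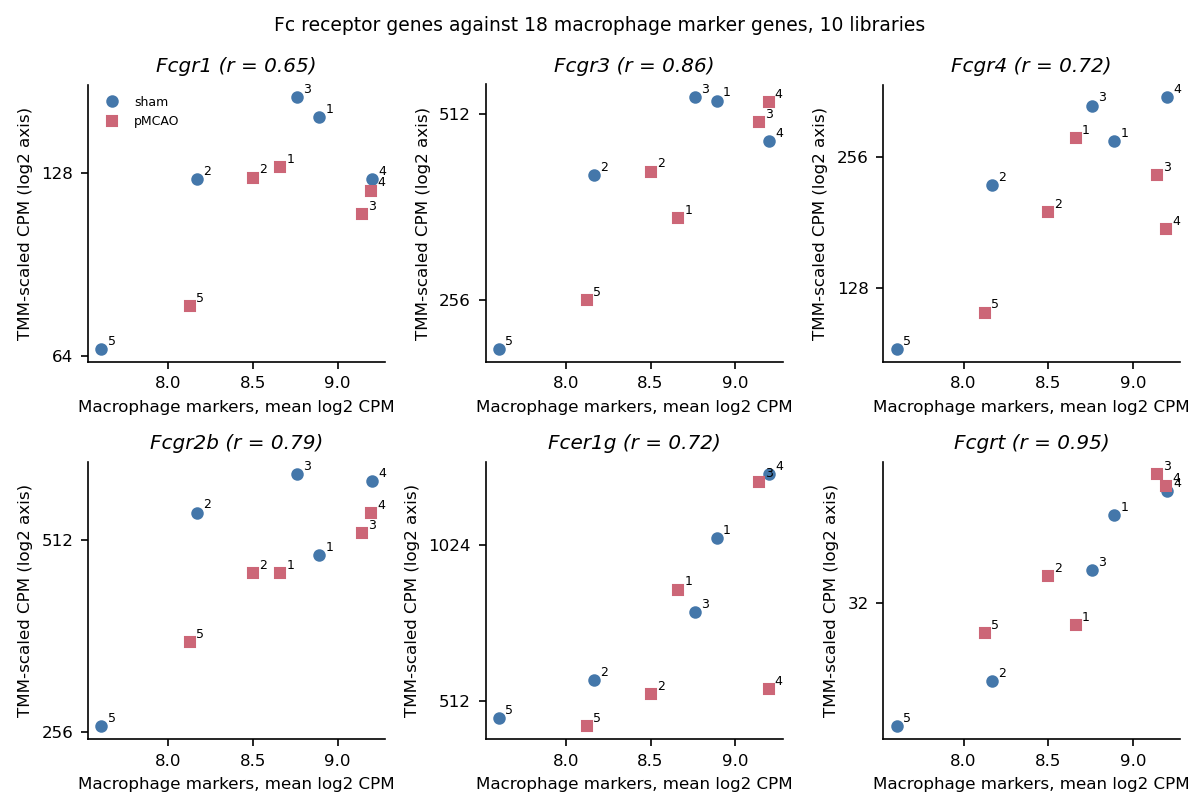
TMM-scaled CPM of the 6 Fc receptor genes (vertical axes, log2) against the mean log2 CPM of 18 macrophage marker genes (horizontal axes) in 5 sham (blue circles) and 5 pMCAO libraries (red squares), numbered by replicate. Fcgrt rises with the markers over the whole range (r = 0.95), while Fcgr1, Fcgr2b and Fcgr4 are low in replicates 5 and show little slope among the other 8 libraries.

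Among themselves the 6 genes had positive correlations in 15 of 15 pairs, of which 8 passed the adjusted threshold by Pearson's r. The closest pairs were Fcgr4 with Fcgr1 (r = 0.90, permutation p = 0.00119, adjusted p = 0.0127; rho = 0.70, permutation p = 0.0303) and Fcgr3 with Fcgr2b (r = 0.90, permutation p = 0.00103, adjusted p = 0.0127; rho = 0.71, permutation p = 0.0272). Fcgr2b was also close to Fcgr4 (r = 0.86, permutation p = 0.00192, adjusted p = 0.0127; rho = 0.71, permutation p = 0.0271) and to Fcgr1 (r = 0.83, permutation p = 0.00502, adjusted p = 0.0207; rho = 0.48, permutation p = 0.167). Without sham replicate 5 and pMCAO replicate 5 the first pairs fell to r = 0.55 and 0.51, Fcgr2b with Fcgr4 and Fcgr1 to 0.42 and 0.19, and Fcgr4 with Fcgr3 from 0.79 to 0.065. Fcer1g with Fcgr4 was the pair that also passed by rank (rho = 0.85, permutation p = 0.00293, adjusted p = 0.0483; r = 0.75, permutation p = 0.0125, adjusted p = 0.0317), and its r was 0.66 without those 2 libraries. Whether reads shared between Fcgr2b and Fcgr3 were counted is not stated, and their part in the likeness of that pair was not tested.

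The genes whose pattern over the 10 libraries was most like that of each Fc receptor gene were sought among 7523 genes with a mean log2 CPM of at least 4, by Pearson's r of log2 CPM. For Fcgr1 they were 4632428N05Rik (0.96), Rab31 (0.92) and Ms4a6c (0.91), and for Fcgr3 they were Pea15a (0.97), C1qb (0.96), a complement gene of tissue macrophages, and Snx5 (0.95). Fcgr4 was most like Pilra (0.98), an inhibitory myeloid receptor, Gbp2b (0.97) and Scimp (0.95). Fcgr2b was most like Pdcd6ip (0.97), Cd93 (0.95) and Fam174a (0.95). For Fcer1g they were Fes (0.97), a myeloid tyrosine kinase, and Fgd2 (0.96), and for Fcgrt they were Nfic (0.97), Ap1b1 (0.96), a subunit of an adaptor complex for vesicle sorting, and Ctsb (0.95), a lysosomal protease. These values describe the same libraries in which replicate 5 of both groups was low.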

How the data were processed

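RNA from sorted lamina propria macrophages (2.0 ng per library) was sequenced by the authors in paired reads of 100 bases after removal of ribosomal RNA. As deposited by the authors, the table gives raw counts for each gene and library, which are whole numbers and were not normalised. It also gives CPM and columns of their own comparison (a log2 fold change, mean expression, p-value and FDR), which were not used. The submitters' processing notes name STAR, featureCounts and limma on GRCm38 (mm10), without versions. The strandedness of counting is not given in the sources used here.

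From the counts, genes were filtered by filterByExpr and normalised by TMM. The groups were tested in edgeR 4.0.16 (R 4.3.3) by quasi-likelihood without covariates, and p-values were adjusted by Benjamini-Hochberg over 16949 genes. Standard errors were the fold change divided by the root of the F statistic. For ratios (prior count 0.5) an exact permutation test, two-sided, was used, and for correlations 100000 permutations (log2 CPM with a prior count of 2). Immunoglobulin genes were those with an immunoglobulin biotype in GENCODE M21, and Jchain. Levels per kb, annotation and identical windows used GENCODE M21, and promoters RefSeq GRCm38.p6, in which all 6 genes were matched. Alternatives included DESeq2 1.42.0 and limma-voom (limma 3.58.1). The edgeR test was also run on counts simulated from the means, spread and depth of these libraries. At an adjusted p of at most 0.05 it called 5 of 100 genes changed by 1 on the log2 scale. Of 100 genes changed by 2 it called 33, with 2 false calls among 16500 genes. A count of 0 calls thus says little about changes of that size.

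The members, gene lists and tests were chosen with earlier results of these data known. Genes named besides the members are, per list, the 2 with the smallest unadjusted p, defining cell type markers, the immunoglobulin constant genes with the highest mean, and the 3 genes most like each member. A gene that this rule gives is not reported here. Syk was added after its values were seen. The labels call the libraries biological replicates but do not say whether each is 1 animal, so p-values measure the spread between these samples. No pair of libraries came near sampling noise (lowest chi-square per degree of freedom 44.9, over 12094 genes), and all 10 were kept as separate samples.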

Additional observations from a re-analysis of the deposited data

How the results depend on the processing

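The count of Fc receptor genes past an adjusted p of 0.05 was 0 under all 21 alternatives: DESeq2, limma-voom with and without quality weights, upper-quartile scaling, library sizes without immunoglobulin genes, other filters, the immunoglobulin share as a covariate, the replicate block, the libraries without pools or without Xist counts, and each library left out in turn. Over the alternatives the log2 fold change of Fcgr1 ran from -0.39 to -0.075, that of Fcgr2b from -0.39 to -0.048 and that of Fcgr4 from -0.58 to -0.22. Fcgr3 was at -0.37 without both Xist libraries, turned to 0.062 without the pooled libraries and ran from -0.26 to 0.046 with each library left out, turning positive at 0.0061 without sham replicate 1, 0.012 without sham replicate 3 and 0.046 without pMCAO replicate 5. Fcer1g ran from -0.53 to 0.052 with each library left out, the latter without sham replicate 4, and Fcgrt turned to -0.10 when both libraries with Xist counts were left out. The cause was not tested.

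The log2 ratio of Fcgr2b to the activating receptors differed by -0.014 without the pooled libraries and by -0.050 to 0.099 with each library left out. That of Fcer1g to the activating receptors differed by 0.15 without the 2 libraries with Xist counts and by -0.26 to 0.070 with each library left out. The ratio of Fcgrt to B2m differed by 0.52 without the pooled libraries, by 0.015 without both Xist libraries, and by 0.080 (without sham replicate 2) to 0.46 (without pMCAO replicate 1) with each library left out, all in the same direction. The cause was not tested. The relation to the immunoglobulin share turned to r = 0.070 for Fcgr2b and 0.038 for Fcgr4 with CPM of the non-immunoglobulin counts, and to -0.087 for Fcgr1 with IgG genes alone. In the 7 libraries with a share above 1%, an alternative added after the data were seen, it turned to 0.42 for Fcgr2b, 0.31 for Fcgr3, 0.20 for Fcgr4 and 0.019 for Fcgrt. The relation of Fcgr4 ran from -0.26 to 0.074 with each library left out. That of Fcer1g passed the adjusted threshold with IgG genes alone (r = -0.70) and without the 2 libraries with Xist counts (r = -0.84), and ran from -0.77 to -0.38 with each library left out, passing without pMCAO replicate 4. That of Fcgrt passed with CPM of all counts (r = -0.71) and with IgG genes alone (r = -0.79), and ran from -0.80 to -0.60 with each library left out, passing without sham replicate 5 or pMCAO replicate 2.

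The labels give same-numbered libraries no shared animal, litter or day, and not every pair correlated over 0.1, so they were not treated as pairs: the correlations of their deviations from the group means were between -0.0055 and 0.34 for replicates 1 to 4 and 0.37 for replicate 5, 3 of 5 were over 0.1, and 5 of 10 libraries correlated best with their own number. With the replicate block the count of calls stayed at 0, and the ratio of Fcgrt to B2m differed by 0.25 (exact sign-flip test, p = 0.438). The unadjusted edgeR p-values with the block ran from 0.166 for Fcgr4 to 0.736 for Fcgr3, beside 0.295 and 0.763 without it. None of 20 groups of 5 values held a library whose gap to its neighbour passed 0.71 of the range, so none was listed as distant. Same-numbered libraries were also alike in some respects: both replicates 1 were pools by name, both replicates 2 had the highest immunoglobulin share of their group and both replicates 5 the lowest macrophage marker sum. Total counts were lower in pMCAO (median 11605371 against 33913980), and the part of depth in the spread was not tested.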
